A study of Mus musculus with 10 samples.

Results

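Messenger RNA of 9 tricarboxylic acid cycle genes was examined in CD31+ cells from mouse hearts: Cs, Idh2, Idh3a, Ogdh, Dlst, Suclg1, Suclg2, Fh1 and Mdh2. They were chosen by name for their place in the cycle, and all 9 were found among the 46983 genes of the count table. C57BL/6J males entered the study at 8 weeks of age and ate either a control diet with 11.6% of its energy as fat (5 samples) or a ketogenic diet with 89.5% (5 samples) for 14 days. Cells of both groups were bound to magnetic beads through CD31, a surface protein of endothelial cells, and sequenced with a low-input kit that does not record the strand. The question for these genes is whether the enzymes that burn acetyl-CoA, including that made from ketone bodies, are expressed differently in cardiac endothelial cells of mice on the ketogenic diet. Each sample is called a mouse here, but the labels number the samples without stating that each is a separate animal, and p-values measure the spread between these samples.

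The libraries held 10885154 to 12710861 reads assigned to genes. The endothelial markers Pecam1 and Cdh5 had at least 6770 and 7356 reads in every mouse, and transcripts of other heart cells were also present, with Myh6, the cardiac myosin heavy chain, at 322 to 1052 reads. Counts were scaled to library size by the TMM method, and the scaled values are called normalized counts. Of all genes, 15949 passed edgeR's filter on low counts and were compared between the diets by its quasi-likelihood test, with Benjamini-Hochberg adjustment over all of them, and all 9 cycle genes passed this filter. An adjusted p-value under 0.05 was called a difference.

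The cycle runs in the mitochondrial matrix. Citrate synthase joins acetyl-CoA to oxaloacetate, a series of dehydrogenases releases carbon dioxide and passes electrons to NADH and to complex II, and malate dehydrogenase restores oxaloacetate. Acetyl-CoA from glucose, fatty acids and ketone bodies enters at the same step. The breakdown of acetoacetate also uses succinyl-CoA, a cycle intermediate, as the donor of coenzyme A. Endothelial cells are known for making much of their ATP by glycolysis, and cycle intermediates also serve them as precursors of aspartate, nucleotides and lipids.

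For none of the 9 genes did a difference between the diets pass the test. EdgeR's test called 0 of 9, while it called 1.34% of all genes tested. At an unadjusted p-value under 0.05 the count was also 0 of 9, against 17.8% of all genes, and DESeq2 called 0 of 9 as well, against 5.67% of the genes it gave an adjusted p-value. The normalized counts of the 2 diets overlapped for each of the 9 genes, whereas they did not overlap for 4.34% of all genes. The log2 fold change, ketogenic over control, was above 0 for 7 of the 9 and had a median of 0.032. Over all genes it was above 0 for 48.6%, with a median of −0.006. Except for Idh2 and Suclg2, every gene of the group had a 95% interval that lay within 0.899-fold and 1.12-fold on the scale of the counts.

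**Figure D1:**
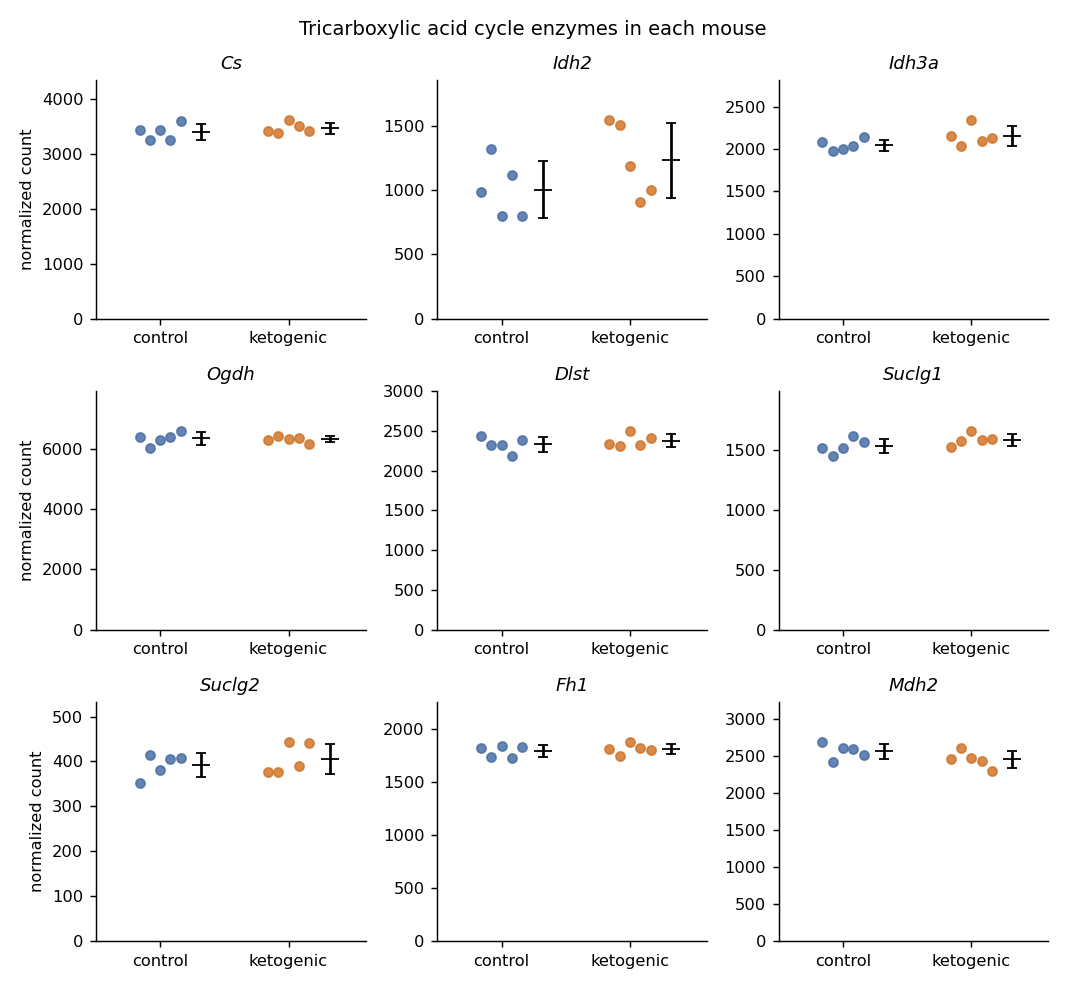
Normalized count (y axis, from 0) of each of the 9 genes in the 5 mice of each diet (points, in order of replicate number, control in blue, ketogenic in orange), with the mean and SD beside them. The diets overlap in every panel, and the mice lie farthest apart, relative to their mean, for Idh2.

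Cs encodes citrate synthase, the entry enzyme. It lies on chromosome 10 from 128337734 to 128362479 (GRCm38). In control mice 1 to 5 its normalized count was 3430, 3244, 3431, 3257 and 3593, and in ketogenic mice 1 to 5 it was 3406, 3385, 3622, 3513 and 3405. The ranges of the diets overlapped over most of their width, and 3 of the ketogenic mice lay below the highest 3 of the control mice. The means were 3391 in control and 3466 in ketogenic mice, 0.03 apart on the log2 scale (standard error, SE, 0.0354, edgeR adjusted p = 0.677), with a 95% interval of 0.969-fold to 1.08-fold. Of its 50-base mRNA windows, 3.997% also occur in transcripts of Csl, an intronless relative that had 87 to 120 reads per mouse, so that a small part of the reads could have been counted on either gene or on neither. Cs also contains Gm23182 on the same strand.

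Of the isocitrate dehydrogenases, Idh2 varied far more between mice than Idh3a, and neither passed the test. Idh3a, the catalytic subunit of the NAD-dependent enzyme of the cycle, lies on chromosome 9 from 54586334 to 54604661. Its normalized count was 2078, 1978, 1998, 2036 and 2138 in control mice 1 to 5. On the ketogenic diet it was 2150, 2037, 2348, 2091 and 2135. Mouse 3 of the ketogenic diet was higher than the other mice, and the remaining 4 lay within or just above the control range. On the log2 scale the difference was 0.07 (SE 0.0421, edgeR adjusted p = 0.390), with an interval of 0.987-fold to 1.12-fold.

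Idh2 encodes the NADP-dependent mitochondrial isocitrate dehydrogenase, which supplies NADPH for antioxidant defence in the matrix. It lies on chromosome 7 from 80094846 to 80115392. The normalized counts of control mice 1 to 5 were 985, 1320, 799.1, 1118 and 794.6. Those of ketogenic mice 1 to 5 were 1547, 1508, 1185, 908.7 and 1003. Mice 1 and 2 of the ketogenic diet were above every control mouse, while mice 4 and 5 of that diet were below the control mice 2 and 4. The highest value of the 10 mice was 1.95 times the lowest. This gene had the highest fold change of the group, 0.29 on the log2 scale, and also the widest error (SE 0.174, edgeR adjusted p = 0.407). Its 95% interval of 0.942-fold to 1.59-fold includes no difference as well as a rise of more than 1.5-fold. The variance of its raw counts within a diet was 64.7 times the mean in control mice and 52.2 times in ketogenic mice. That placed it at percentiles 98.2 and 97.2 of the tested genes that averaged 1000 reads or more. No 50-base window of its mRNA occurs in the transcripts of a gene elsewhere, although Gm45203 overlaps it on the same strand.

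The 2-oxoglutarate dehydrogenase complex, which makes succinyl-CoA, was represented by Ogdh (chromosome 11 from 6291633 to 6356642), its first enzyme, and Dlst (chromosome 12 from 85110833 to 85134845), its core. Ogdh had normalized counts of 6381, 6031, 6299, 6401 and 6595 in control mice 1 to 5. It had 6296, 6420, 6322, 6362 and 6158 in the ketogenic mice. All 5 ketogenic mice lay inside the control range. Ketogenic minus control gave −0.01 on the log2 scale (SE 0.0274, edgeR adjusted p = 0.923), and its interval, 0.955-fold to 1.04-fold, was the narrowest of the 9. Its sign was above 0 in 7 of the 22 alternative fits, library size alone and limma on RPKM among them. Dlst ranged from 2190 to 2440 on the control diet and from 2313 to 2503 on the ketogenic diet, which gave 0.03 on the log2 scale (SE 0.0371, edgeR adjusted p = 0.722).

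Succinyl-CoA ligase turns succinyl-CoA into succinate and makes a nucleoside triphosphate. Suclg1 (chromosome 6 from 73248382 to 73276911) is the alpha subunit common to both forms of the enzyme, and Suclg2 (chromosome 6 from 95473009 to 95718800) is the beta subunit of the GTP-forming one. Suclg1 ranged from 1453 to 1619 in control and from 1526 to 1665 in ketogenic mice (log2 fold change 0.05, SE 0.0394, edgeR adjusted p = 0.541). Suclg2 was the gene with the fewest reads in the group, 325 to 483 per mouse. Its normalized counts were 351, 414.7, 382, 405.3 and 407.3 in control mice 1 to 5 and 375.9, 376.4, 443.8, 389.7 and 440.1 in ketogenic mice 1 to 5. Mice 3 and 5 of the ketogenic diet were the highest of the 10, and the other 3 lay within the control range. The difference came to 0.05 on the log2 scale (SE 0.0771, edgeR adjusted p = 0.788), and the interval of 0.920-fold to 1.16-fold leaves more room than for the more abundant genes. As 21.82% of the 50-base windows of its mRNA also occur in transcripts of the annotated gene Gm15163, which had 141 to 191 reads per mouse, the count of Suclg2 is uncertain.

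Fh1 encodes fumarase, which hydrates fumarate to malate (chromosome 1 from 175600374 to 175625635). It overlaps Kmo on the other strand, from which its reads cannot be told apart in these libraries. Its range was 1731 to 1842 on the control diet and 1746 to 1879 on the ketogenic diet. Over the 10 mice its log2 CPM (normalized to library size) spanned 0.12, less than for any other gene of the group. Ketogenic over control was 0.02 on the log2 scale (SE 0.0345, edgeR adjusted p = 0.852), with an interval of 0.959-fold to 1.06-fold.

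Mdh2, the mitochondrial malate dehydrogenase that closes the cycle, lies on chromosome 5 from 135778480 to 135790398. Raw reads counted on it were 2497, 2543, 2521, 2472 and 2510 in control mice 1 to 5, and 2497, 2504, 2521, 2508 and 2524 in ketogenic mice 1 to 5. The raw count was nearly the same in every mouse, with means of 2508.6 and 2510.8. Its variance was 0.28 times the mean on the control diet and 0.0521 times on the ketogenic diet, whereas independent reads give a ratio of about 1. After scaling, ketogenic minus control was −0.06 on the log2 scale (SE 0.0406, edgeR adjusted p = 0.432), with 2572 ± 102 (SD, n = 5) normalized counts in control and 2459 ± 113 (SD, n = 5) in ketogenic mice. The mean scaled library size on the ketogenic diet was 1.047 times that on the control diet, while the raw means of Mdh2 differed by less than the spread within a diet.

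**Figure D2:**
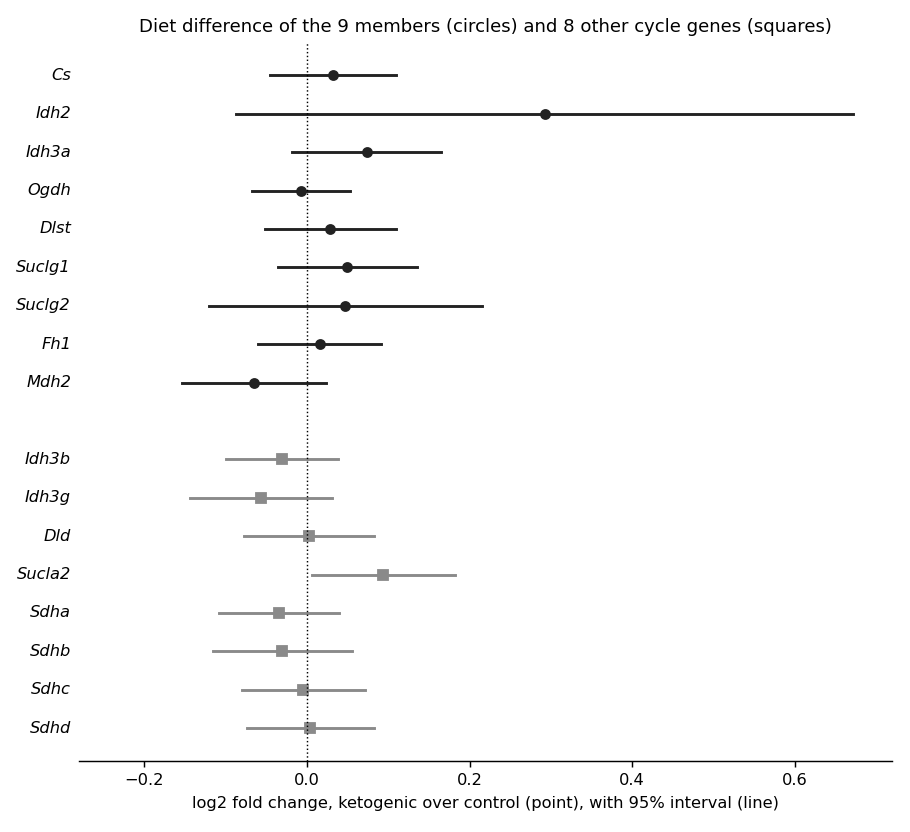
Log2 fold change, ketogenic over control (x axis), from edgeR for the 9 genes (black circles) and for 8 other genes of the mitochondrial cycle (grey squares), with 95% intervals as lines. All intervals of the 9 genes cross 0, that of Idh2 is the widest, and among the grey genes Sucla2 alone has an interval above 0.

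Of the 9 genes, Mdh2 and Ogdh had the mean counts nearest to the number of places at which a read can start. A read of 50 bases on either strand of an mRNA of known length has a fixed number of possible start positions, and no gene of the table exceeded 2.171 reads per base of gene length in any mouse. Taking the principal GENCODE mRNA of each gene, the mean count was 89.2% of the possible start positions for Mdh2, 77.5% for Ogdh, 59.6% for Cs, 53.2% for Suclg1, 44.6% for Idh3a, 43.4% for Dlst, 34.8% for Fh1, 32.9% for Idh2 and 6.02% for Suclg2. The median of the 3740 genes averaging 1000 reads or more and with a principal mRNA was 31.4%. Of them, 190 had as high a percent as Mdh2 or a higher one. The positions of the reads were not observed, and the percent passed 130% for 17 of these genes. In 197 of these genes the variance was below the mean in both diets, as it was for Mdh2. For Ogdh it was not, at 10.3 times the mean on the control and 7.92 times on the ketogenic diet. The medians of tested genes averaging 1000 reads or more were 7.86 and 10.2. The sources used here do not state whether reads with the same start were removed. If each start position were counted only once, a 2-fold higher level of mRNA would raise the count by 1.11-fold for Mdh2 and 1.22-fold for Ogdh, but by 1.67-fold for Idh2 and 1.94-fold for Suclg2. The narrow intervals of Mdh2 and Ogdh apply to the counts, and under that condition a difference in mRNA level would be larger than the one counted.

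**Figure D3:**
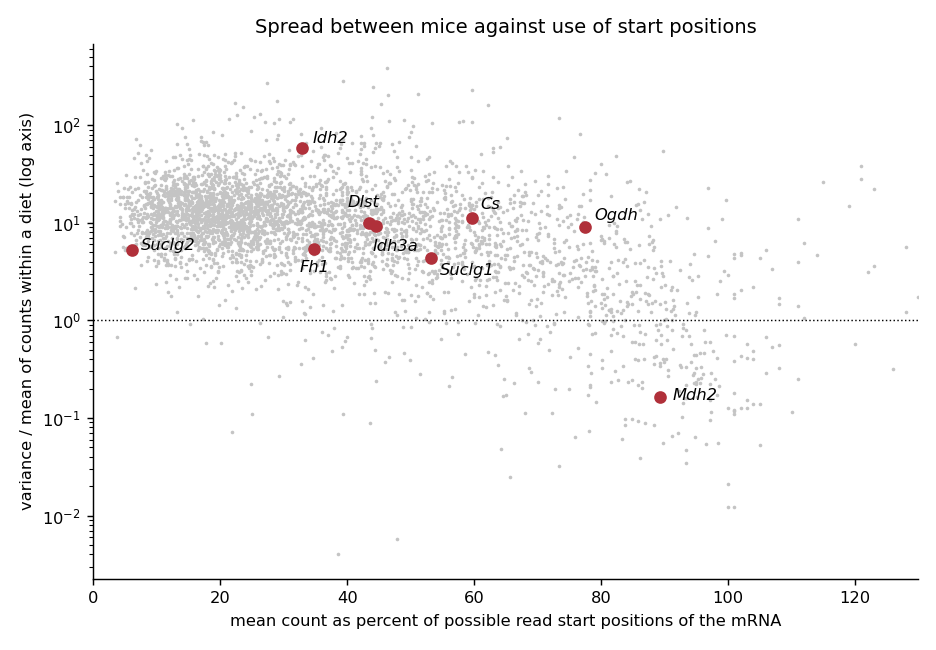
Variance over mean of the raw counts, averaged over the 2 diets (y axis, log scale), against the mean count as a percent of the possible read start positions of the principal mRNA (x axis), for genes averaging 1000 reads or more (grey) and for the 9 cycle genes (red, Suclg2 included with fewer reads). The 17 genes above 130% are outside the picture. Mdh2 lies at 89.2% and well below the dotted line at a ratio of 1, and Idh2 at 32.9% lies near the top of the cloud.

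Counts were also corrected for occupied start positions, as if each position could be counted only once. With the authors' gene length, 0 of 9 genes were called, against 1.49% of all genes, and Idh3a had 0.12 on the log2 scale with an interval of 0.001 to 0.239, which lies just above 0 (edgeR unadjusted p = 0.0492, adjusted p = 0.273). The intervals of the other 8 genes included 0. With mRNA length, a form added after the data had been seen, 0 of 9 genes were called as well, against 1.58% of all genes. Ketogenic over control then became, on the log2 scale, 0.08 for Cs, 0.11 for Idh3a, 0.06 for Ogdh, 0.10 for Suclg1 and 0.37 for Idh2, and the lowest adjusted p-value was 0.320, that of Idh3a. The upper ends of the intervals moved from 1.04-fold to 1.12-fold for Ogdh and from 1.12-fold to 1.18-fold for Idh3a. For Mdh2, whose raw count hardly varied, the corrected value was −0.07.

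Levels were compared between genes per kilobase. In the deposited RPKM values, the order was Cs (104 as the mean of the 10 mice), Idh3a (74.9), Dlst (73.0), Ogdh (66.4), Mdh2 (36.1), Fh1 (31.1), Suclg1 (20.5 to 23.6 over the mice), Idh2 (16.6) and Suclg2 (5.14). Neighbours in this order whose mice overlapped were Idh3a with Dlst, Dlst with Ogdh, and Suclg1 with Idh2, while Cs stood above and Suclg2 below the others in every mouse. RPKM divides by the length of all exons of a gene, which the authors' values put at 5982 bases for Mdh2, although its principal mRNA has 1456. Divided by the mRNA length instead, in an alternative added after the data had been seen, Mdh2 had a CPM per kilobase of 148, followed by Ogdh (131), Cs (95.1 to 106 over the mice), Suclg1 (88.2), Idh3a (74.9), Dlst (73.1), Fh1 (58.6), Idh2 (54.9) and Suclg2 (10.2). On this scale the ranges over the mice overlapped for Mdh2 (135 to 159) with Ogdh (125 to 137). They also overlapped for Suclg1 (82.0 to 94.0) with Idh3a (70.6 to 83.8), for Idh3a with Dlst and for Fh1 with Idh2. An overlap of ranges does not say which gene was higher within a mouse. By RPKM, Dlst was above Ogdh in every mouse (67.1 against 66.4 in control mouse 4, for example). The order of Idh3a and Dlst, and that of Suclg1 and Idh2, changed between mice. On the mRNA scale the neighbours were not compared mouse by mouse. By RPKM, Mdh2 held the fifth place and Suclg1 the seventh. The levels of Mdh2 and Ogdh rest on counts at 89.2% and 77.5% of their possible start positions. Suclg2 was the lowest on both scales. On the mRNA scale Sucla2, which takes its place as the beta subunit in the ATP-forming ligase, had 78.5.

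**Figure D4:**
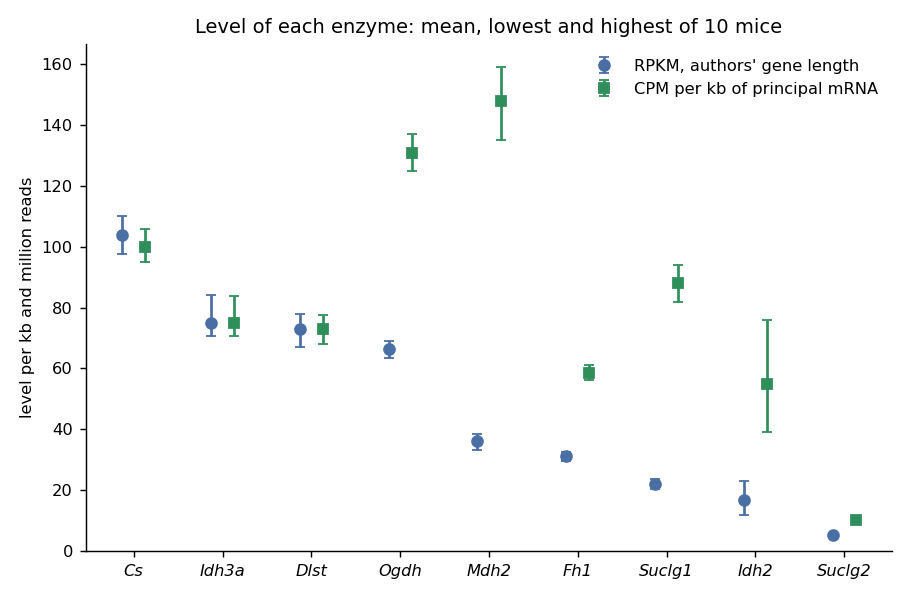
Level of each of the 9 genes on 2 scales (y axis, RPKM or CPM per kilobase), as the mean of the 10 mice with the lowest and highest mouse: the deposited RPKM (blue circles) and CPM per kilobase of the principal mRNA (green squares). The 2 scales give like values for Cs, Idh3a and Dlst, while Mdh2 has 36.1 on the first and 148 on the second.

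For 8 other genes of the mitochondrial cycle, 0 of 8 had an adjusted p-value under 0.05 from edgeR, against 1.34% of all genes tested. The partners of Idh3a in the NAD-dependent isocitrate dehydrogenase had log2 fold changes of −0.03 (Idh3b) and −0.06 (Idh3g). Dld, the third enzyme of the 2-oxoglutarate and pyruvate dehydrogenase complexes, had 0.0027. For the 4 subunits of succinate dehydrogenase, which is complex II of the respiratory chain, the values were −0.03 (Sdha), −0.03 (Sdhb), −0.0044 (Sdhc) and 0.0043 (Sdhd). Sucla2 had 0.09 (SE 0.0404, edgeR unadjusted p = 0.0387, adjusted p = 0.251), with 1975 ± 41.3 (SD, n = 5) normalized counts in control and 2108 ± 115 (SD, n = 5) in ketogenic mice. The mean counts of Idh3b, Sdha and Sdhd were 80.1%, 83.9% and 81.2% of their possible start positions, a higher percent than for Ogdh. The spans of Idh3b, Sdha and Sucla2 on the chromosome overlap a gene on the other strand. The libraries do not record the strand, and whether their mRNAs share sequence with that gene was not tested.

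Outside the mitochondrial cycle, 1 of 15 tested genes of cytosolic, anaplerotic and related enzymes passed the test, against 1.34% of all genes tested. The gene was Idh1, the cytosolic and peroxisomal NADP-dependent isocitrate dehydrogenase. Its normalized count rose from 1426 ± 91.9 (SD, n = 5) to 1668 ± 66.5 (SD, n = 5), or 0.23 on the log2 scale (SE 0.0491, edgeR adjusted p = 0.047). All 5 ketogenic mice, from 1619 upwards, were above the highest control mouse at 1553. The call was close to the threshold and was kept in 11 of 22 alternatives, and it was lost with 8 of the 10 mice left out in turn. The difference was 0.206 to 0.26 on the log2 scale without 1 mouse and 0.173 to 0.285 in the other alternatives. Over all alternatives its adjusted p-value ranged from 0.00161 with DESeq2 to 0.436 with the cardiomyocyte covariate described next. The list has 17 genes, of which Ogdhl and Dhtkd1, with at most 6 and 33 reads, were not tested. It had 7 values above 0 and 8 below, and the median was −0.01 on the log2 scale. The highest value was that of malic enzyme 1 (Me1, 0.38, adjusted p = 0.189 from edgeR) and the lowest that of pyruvate carboxylase (Pcx, −0.37, adjusted p = 0.175 from edgeR), which makes oxaloacetate from pyruvate. Of the 4 assembly factors of complex II, 0 passed the test, with log2 fold changes from −0.04 (Sdhaf2) to 0.38 (Sdhaf1, which had 17 to 34 reads per mouse).

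Transcripts of cardiomyocytes, cells rich in cycle enzymes, had fold changes above 0. Of 16 cardiomyocyte marker genes, 16 had a log2 fold change above 0, against 48.6% of all genes tested. By edgeR, 12 of the 16 had an unadjusted p-value under 0.05, against 17.8% of all genes. The adjusted p-value was under 0.05 for 0 of the 16 markers, against 1.34% of all genes. Their median log2 fold change was 0.313, with 0.55 for Myh6, 0.10 for Tnnt2 and 1.03 for Ttn. Their summed normalized count was 10935 to 13261 in control and 12524 to 17170 in ketogenic mice. In such mixed preparations, fewer cells of a type and less RNA per cell cannot be told apart. With each mouse's mean log2 CPM of these markers as a covariate, 0 of the 9 cycle genes had an adjusted p-value under 0.05, against 0.069% of all genes. This score itself differed with diet, at 5.405 to 5.84 in control and 5.715 to 6.223 in ketogenic mice. Score and diet are therefore not fully separated in this fit, and the SE of Cs, for example, was 0.05 in place of 0.0354. The fit called few genes of any kind, and the cause of that was not tested. The log2 fold change then moved below 0 for Cs (−0.03), Suclg1 (−0.03), Suclg2 (−0.02) and Fh1 (−0.02), and stayed above 0 for Idh3a (0.03) and Dlst (0.02). For Idh2 it was 0.70 (SE 0.218, edgeR unadjusted p = 0.00826, adjusted p = 0.282), with an interval of 1.16-fold to 2.26-fold. Macrophage markers had a median log2 fold change of −0.475 with 0 of 7 past the threshold, and summed to 2465 to 7877 normalized counts in control and 2234 to 4275 in ketogenic mice. Platelet markers had −0.746 with 0 of 4 past the threshold, and summed to 4018 to 6752 and 1905 to 4875. The endothelial markers had −0.048 with 0 of 10 past the threshold, and summed to 60932 to 64245 and 59521 to 66348. Their mean counts were a median of 94.2% of their possible start positions. No marker of these lists was at 0 in any mouse. The part of these 3 lists in the values of the cycle genes was not tested.

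**Figure D5:**
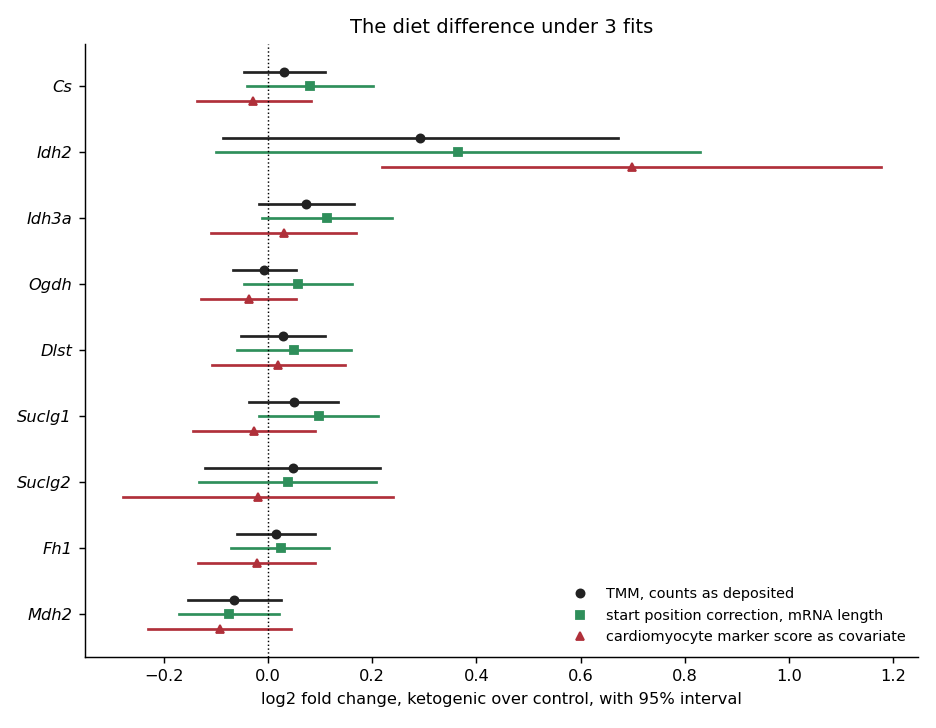
Log2 fold change, ketogenic over control (x axis), with 95% intervals, for each of the 9 genes under 3 fits: counts as deposited (black circles), counts corrected for occupied start positions by mRNA length (green squares) and the cardiomyocyte marker score as a covariate (red triangles). The correction by the authors' gene length is not drawn. The intervals of 8 genes include 0 in all 3 fits, and that of Idh2 lies above 0 with the covariate.

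Among themselves, the 9 genes did not vary as a block from mouse to mouse. After each diet's mean was subtracted, 24 of the 36 pairs of genes had a Pearson correlation of log2 CPM above 0 over the 10 mice, with a median of 0.16. The highest was that of Cs with Fh1, at 0.87, and Idh2 had −0.66 with Cs and −0.63 with Fh1. These values share library depth and, for a gene whose raw count hardly varied, such as Mdh2, the scaling factor itself. The genes whose pattern was most like the mean of the 9, among those averaging 100 reads or more, were Tspyl5 (r = 0.962), Lrrc17 (0.926), Prkaa2 (0.900), Rad23b (0.899) and Dnajc27 (0.892) over the 10 mice. Over the mice the log2 CPM of Idh2 spanned 0.96 and that of the other 8 genes between 0.12 and 0.34.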

How the data were processed

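The authors deposited raw counts of reads per sample for 46983 genes. They also deposited RPKM values, which are these counts divided by gene length and by the reads counted in the sample. Per the labels, bcl2fastq 2.17.1.14, STAR 2.3 and HTSeq 0.6.0 were used with build mm10. The annotation release and any removal of duplicate reads are not given in the sources used here. Symbols, positions and mRNAs came from GENCODE M21 (GRCm38), which paired 46488 identifiers with a symbol without regard to version. The principal mRNA was the one ranked first by APPRIS, then by transcript support level and length.

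Diets were compared with edgeR 4.0.16 (TMM, filterByExpr, quasi-likelihood F-test) in R 4.3.3. Standard errors were derived from F and the fold change, and 95% intervals use the test's degrees of freedom. Log2 CPM had a prior count of 2. Pairs of samples differed beyond sampling noise (chi-square per degree of freedom of 4.32 or more). The alternatives were other scaling factors, no filter or a minimum count of 10 throughout, DESeq2 1.42.0, limma 3.58.1 on log2(RPKM + 1) or log2(RPKM + 0.1), the replicate number as a block, a cardiomyocyte score, start position corrections (occupancy limited to 0.98) and each mouse left out. The tests were tested on simulated data.

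Genes named are the 9 members, 8 other cycle genes, called genes and extremes of the further lists, the 5 nearest patterns and defining markers. Some genes of the lists are not reported here by name. Members and lists were chosen with earlier results of these data known. Fibroblast, mural, lymphocyte and erythroid markers had median log2 fold changes of 0.114, −0.022, −0.461 (1 gene called) and 0.02.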

Additional observations from a re-analysis of the deposited data

Results flagged for a closer look

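In 40 groups of 5 mice, each the normalized counts of a cycle gene, of Idh1 or of the summed cardiomyocyte markers in 1 diet, 3 mice stood apart from the others of their diet, where chance gives about 2 groups (1 in 20). A mouse was taken to stand apart when more than 0.71 of the range of its diet lay between it and the next mouse. The ratio was 0.76 for Idh3g in mouse 2 of the ketogenic diet, the highest with 2064. It was 0.713 for Sucla2 in mouse 1 of the control diet, the lowest with 1904, and 0.784 for Idh1 in mouse 3 of the ketogenic diet, the highest with 1784. None of the 9 cycle genes of the report had such a mouse.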

How the results depend on the processing

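None of the 9 cycle genes was called under any of the 22 alternatives, nor was any of the 8 other cycle genes. The log2 fold change of Ogdh was above 0 with library size alone (0.00537), with limma on log2(RPKM + 1) (0.00589) and on log2(RPKM + 0.1) (0.00597), and with start positions corrected by gene length (0.00484) or mRNA length (0.0576). With each mouse left out it lay between −0.0198 and 0.00808. Once the cardiomyocyte score was a covariate, the values of Cs (−0.0275), Suclg1 (−0.0262), Suclg2 (−0.0193) and Fh1 (−0.0224) were below 0. Idh2, Idh3a, Dlst and Mdh2 kept their direction in all 22, Idh2 between 0.199 and 0.698.

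Over all genes, 213 differed. The count was 816 with DESeq2, 113 with the replicate block, 11 with the cardiomyocyte score, and between 86 and 492 with a mouse left out. It was 109, 86, 98 and 134 without control mouse 1, 2, 3 or 4, and 134, 492, 108, 95 and 134 without ketogenic mouse 1, 2, 3, 4 or 5. Of the cytosolic, anaplerotic and assembly genes, 1 differed. With upper quartile factors, the replicate block or the cardiomyocyte score it was 0, with DESeq2 2, and with a mouse left out 0 to 1. Same-numbered mice of the 2 diets had correlations of −0.134 to 0.0936 over the tested genes. This shows no pairing by number but cannot exclude one. With the replicate number as a block, Idh2 had 0.29 on the log2 scale (SE 0.126, edgeR unadjusted p = 0.0499, adjusted p = 0.293). Levels per kilobase of mRNA in place of RPKM moved for Idh2 (54.9), Ogdh (131), Suclg1 (88.2), Suclg2 (10.2), Fh1 (58.6) and Mdh2 (148), as the counts were divided by another length. The cause of the changes in calls and fold changes was not tested. Suclg2 had the fewest reads of the 9, and whether start positions limited the counts of Mdh2 and Ogdh was not tested.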

Other observations

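The genes nearest in pattern to Idh2 and Mdh2 were looked up after their values had been seen. With each diet's mean subtracted, the log2 CPM of Idh2 over the 10 mice was followed by Atp1b2 (Pearson r = 0.987), Eif4g1 (0.981), Arhgef1 (0.976), Npdc1 (0.976) and Tspyl2 (0.976). These are genes of other pathways, among them a sodium pump subunit and a translation initiation factor, and their log2 CPM spanned between 0.36 and 1.09 over the mice. None of the 5 passed the test between the diets (edgeR adjusted p = 0.689 to 0.905). The pattern of Mdh2 was followed by Psap (r = 0.997), Eef2 (0.994), Cav1 (0.994), Sparcl1 (0.993) and Cav2 (0.993). Their mean counts were between 83.7% and 105% of the possible start positions of their mRNA. They had log2 fold changes from −0.076 to −0.055, close to that of Mdh2. Psap, Cav1 and Cav2, like Mdh2, had a variance of raw counts below the mean in both diets. Genes whose raw count hardly varied share the scaling factor itself after scaling. Its part in these correlations and fold changes was not tested.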
